A study of Homo sapiens with 6 samples.

Results

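The 50 genes described here encode the extracellular matrix and the machinery that holds cells to it. They fall into 10 matrix proteins, 6 laminins, 14 collagens, 11 integrin subunits and 9 proteins of focal adhesions, and were found in the deposited table of 31164 genes by their gene names. Each of the 50 was present on a single line. RNA was measured in HT29 cells, a line grown from a human colorectal tumour, in 2 groups of 3 libraries, none of them treated per the labels. The control cells (shNC) have a control hairpin RNA and the genotype label WT. The other cells (shHMGA1) have a stable hairpin RNA against HMGA1, which encodes an architectural protein that grips the minor groove of AT-rich sequence. Whether these cells are a clone or a pool, how many hairpins were used and whether libraries stem from different cultures is not in the labels. The p-values below therefore reflect how far these libraries vary, which may be technical variation.

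Cells of an epithelium rest on a basement membrane, a sheet of laminin and collagen IV networks joined by perlecan, agrin and nidogen. Fibronectin, versican, thrombospondin and the fibrillar collagens belong mainly to the matrix beyond that sheet. Integrins are receptors of 1 α and 1 β chain that bind matrix proteins outside the cell. Inside the cell their β tails recruit talin, kindlins and tensins. Talin and kindlins link them through vinculin, paxillin and zyxin to actin filaments. The α6β4 pair is different, because it anchors to keratins in hemidesmosomes and binds laminin-332. In colorectal tumours these genes are studied for their part in attachment, migration and invasion.

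FPKM (fragments counted for a gene, divided by its transcript length and by the size of the library) is scaled for transcript length, so levels can be compared between genes. Library totals ran from 807156 to 838067 FPKM, and read counts were not used here, so the absolute depth is unknown. HMGA1 itself measured 785, 809.6 and 854 FPKM in shNC and 465, 565 and 508 FPKM in shHMGA1, with replicates 1 to 3 in order here and throughout. Every knockdown library lay below every control library (log2 fold change -0.67, SE 0.075, adjusted p = 0.00180 by limma), and an exact two-sided permutation test gave p = 0.1, the smallest that 3 against 3 allows. The labelled cell type was set against 10 epithelial markers, of which some were present and some near 0. With both kinds, these markers do not settle the cell type, and the label HT29 was kept. EPCAM, KRT8, KRT18 and KRT19 were abundant, at up to 1565 FPKM for KRT8, while CDX1, VIL1 and CDH17, markers of intestinal epithelium, did not exceed 0.22 FPKM in any library and KRT20 was between 0.84 and 1.14 FPKM. CDX2, an intestinal transcription factor, was between 7.12 and 8.97 FPKM, and the epithelial cadherin CDH1 between 33.6 and 38.6 FPKM. The summed level of the 10 epithelial markers was 3478 to 3827 FPKM in shNC and 3128 to 3321 FPKM in shHMGA1. Of these markers EPCAM rose (log2 fold change 0.35, adjusted p = 0.00720), while KRT18 (log2 fold change -0.25, adjusted p = 0.0214) and KRT19 (log2 fold change -0.28, adjusted p = 0.00792) fell. The 6 fibroblast markers in the table were all below 1 FPKM in every library and summed to 0.35 to 0.54 FPKM in shNC and 0.97 to 1.06 FPKM in shHMGA1, where COL3A1 made up most of the sum. Endothelial markers (3 in the table) summed to 0.17 to 0.35 FPKM and leukocyte markers (4) to 1.4 to 2.15 FPKM over all libraries, and the part of any such cells in the results was not tested. In bulk RNA, fewer cells that make a transcript and less transcript per cell cannot be told apart.

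RNA for most of the tested genes among the 50 was lower in the HMGA1 knockdown, and RNA for none of these was called higher. Of the 50 genes, 38 averaged 1 FPKM or more across the libraries and were tested, and none of these 38 passed that level through 1 group alone. By limma on log2(FPKM + 1), with Benjamini-Hochberg adjustment over all 14304 genes tested, 24 of the 38 fell at an adjusted p under 0.05, 0 rose and 14 were not called. Of all genes tested, 12.3% were called lower and 16.1% higher, and with median-of-ratios scaling these shares were 14% and 13.8%. The 50 genes were chosen with earlier results of these data known, so counts beside these shares describe and do not test the list. The median log2 fold change (shHMGA1 minus shNC) was -0.31 for the 38 genes and 0.023 for all genes tested. In 35 of the 38 the log2 fold change was below 0, against 46.7% of all genes. Every knockdown library lay below every control library in 29 of the 38, compared with 20.5% of all genes, and above in 1, compared with 25.4%. Of the 24, 15 were called in every fit with 1 library left out. LAMB2, which is not among the 24, was called lower without shNC replicate 1. With it, 16 of the 38 were called lower in that fit, and 17 were without shNC replicate 2, with 0 higher in both. Of all genes 6.8% were called lower and 7.65% higher in the former fit, and 6.62% and 8.83% in the latter.

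**Figure D1:**
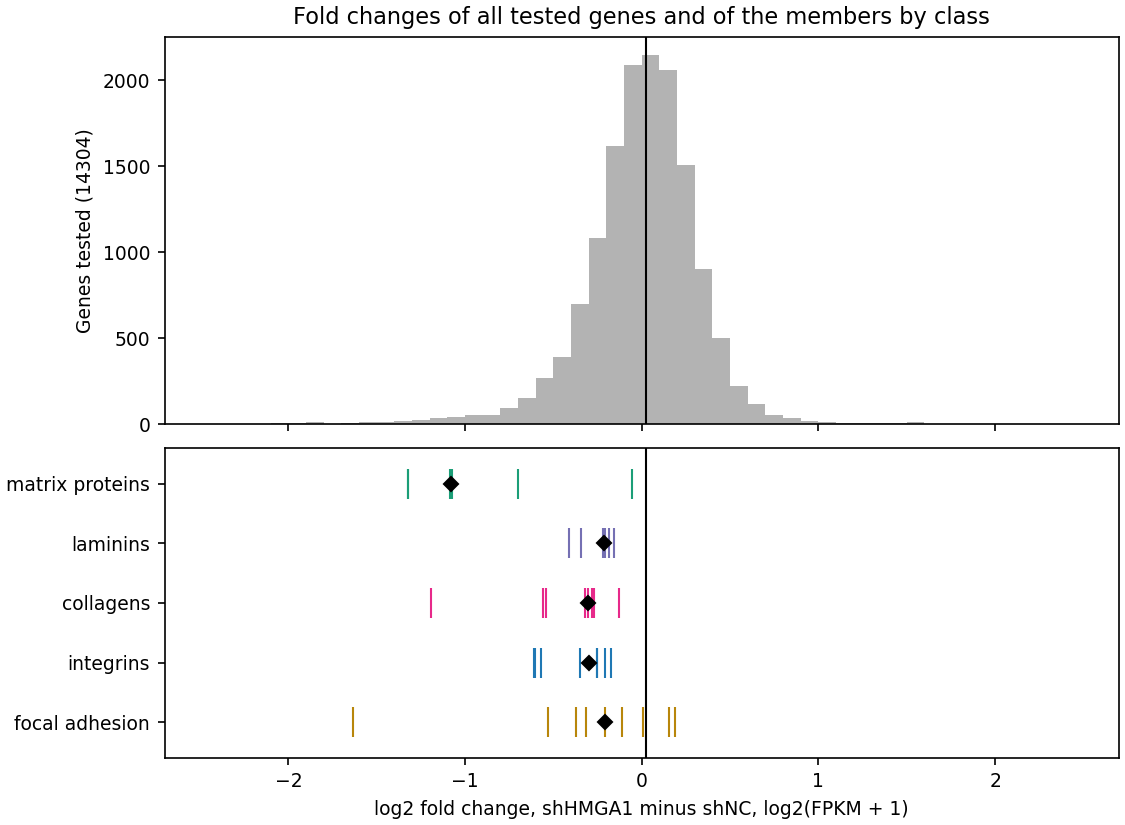
Log2 fold changes (x axis, shHMGA1 minus shNC on the log2(FPKM + 1) scale) of all 14304 tested genes as a histogram, and of the 38 tested members as ticks by class, with black diamonds for class medians and a vertical line at the median of all genes, 0.023. The matrix proteins reach furthest to the left as a class, with a median of -1.08, and the medians of the other 4 classes lie between -0.30 and -0.21.

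Class by class, the size of the difference was summarised. The class medians of the log2 fold change were -1.08 for matrix proteins, -0.30 for collagens, -0.30 for integrins, -0.21 for laminins and -0.21 for focal adhesion proteins. Added over all members of a class, matrix protein RNA in the knockdown was 54.0% of the control level, integrin RNA 73.3%, collagen RNA 77.8%, laminin RNA 83.9% and focal adhesion RNA 84.7%. The 50 genes together summed to 1437 ± 12.2 FPKM in shNC and 1105 ± 6.06 FPKM in shHMGA1 (mean ± SD, n = 3 each, as for every ± below). These sums are a description of the libraries and were not tested, and differences between classes were not tested either. On the log2(FPKM + 1) scale 6 members were called at least 2-fold lower (TNS4, FN1, VCAN, COL13A1, SPARC and THBS1), against 0.762% of all genes tested.

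The members have long transcripts, and exon length varied with the fold change across the transcriptome. The median exon length of the 38 was 8308.5 bases in GENCODE 29, against 4713 for the tested genes with a length. When those genes were divided by length into 5 groups of equal size, 22 of the 38 were among the 2756 longest genes. Of these longest genes 13.6% were called lower and 10.9% higher, with a median log2 fold change of -0.034. Of the 2757 shortest genes, which include 0 of the 38, the shares were 7.91% and 16.1% and the median was 0.058. After a correction of each library for this trend 23 of the 38 were called lower and 0 higher, against 15.1% and 15.2% of all genes. Mitochondrially encoded transcripts took 11.4% to 13.5% of FPKM in shNC and 8.50% to 12.5% in shHMGA1, and without them 26 of the 38 were called lower and 0 higher, against 13.3% and 13.7% of all genes.

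Of the 6 matrix glycoproteins and proteoglycans that were tested, 5 fell. Fibronectin (FN1), which integrin α5β1 assembles into fibrils, measured 13.6, 12.7 and 12.7 FPKM in shNC and 3.78, 5.14 and 4.98 FPKM in shHMGA1. The knockdown libraries kept 35.6% of the control mean, with no overlap between the groups (log2 fold change -1.32, SE 0.10, adjusted p = 0.000754). Versican (VCAN), a large chondroitin sulphate proteoglycan, measured 18.2, 19.5 and 17.6 FPKM in shNC and 7.40, 6.18 and 6.76 FPKM in shHMGA1, and was at 36.8% (log2 fold change -1.32, SE 0.078, adjusted p = 0.000307). In hg38, FN1 (ENSG00000115414.19) lies on chromosome 2, 215360440 to 215436172, minus strand, and VCAN (ENSG00000038427.16) on chromosome 5, 83471465 to 83582303, plus strand.

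SPARC, a collagen-binding protein that counters cell spreading, measured 7.77, 7.89 and 9.41 FPKM in shNC and 3.45, 3.62 and 3.14 FPKM in shHMGA1. Thrombospondin-1 (THBS1), a trimeric adhesive protein that activates latent TGF-β, measured 4.74, 5.48 and 3.73 FPKM in shNC and 2.39, 1.02 and 1.76 FPKM in shHMGA1. THBS1 was the most variable of the genes that fell by over 2-fold: shHMGA1 replicate 2 was the lowest library and replicate 1 the highest of the knockdown, yet all 3 stayed below shNC replicate 3, the lowest control. The changes were -1.08 (SE 0.093, adjusted p = 0.000887) for SPARC and -1.07 (SE 0.21, adjusted p = 0.0102) for THBS1, as log2 fold changes. In THBS1 the adjusted p reached 0.0457 when 1 library was left out.

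Of the heparan sulphate proteoglycans of the basement membrane, 1 fell and 1 was not called. Perlecan (HSPG2) measured 12.9, 12.6 and 12.6 FPKM in shNC and 7.06, 7.60 and 7.64 FPKM in shHMGA1, which is a tight separation (log2 fold change -0.70, SE 0.059, adjusted p = 0.000879). Agrin (AGRN) measured 16.4, 16.9 and 15.0 FPKM in shNC and 15.8, 13.4 and 17.4 FPKM in shHMGA1, and the groups overlapped (log2 fold change -0.055, adjusted p = 0.702). Its log2 fold changes with 1 library left out ran from -0.13 to 0.042, the latter without shHMGA1 replicate 2. Exons of HSPG2 share 2121 bases, 11.7% of its exon length, with LDLRAD2 on the other strand, and that gene was at 0.0733 FPKM in shNC and 0.06 FPKM in shHMGA1.

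The other 4 matrix proteins were too low to test. FBN1 (fibrillin-1, of elastic microfibrils) measured 0.62, 0.59 and 0.52 FPKM in shNC and 0.57, 0.28 and 0.38 FPKM in shHMGA1. Tenascin-C (TNC), a matrix protein of wounds and tumours, ranged from 0.03 to 0.14 FPKM in shNC and from 0.01 to 0.02 FPKM in shHMGA1. Nidogen-1 (NID1), the basement membrane linker, was at 0.01 or 0.02 FPKM in every library. FBN2 was listed at 0 in all 3 knockdown libraries and at up to 0.05 FPKM in the controls.

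Promoters of members with low log2 fold changes are shown for their AT-rich stretches, since HMGA1 is known to bind AT-rich DNA, and beside them those of a pair with a log2 fold change above 0. Sequences are the 250 bases before the gene's start in RefSeq (GRCh38.p14), on the gene's own strand from 5′ to 3′, and 42 of the 50 members had an entry. Those shown are the 5 lowest and the 2 highest log2 fold changes among tested members with an entry, so TNS4, which had the lowest of all, and FERMT1 are not shown. Capitals mark unbroken runs of at least 6 A or T bases and matches to GGAATG or its reverse complement CATTCC, a core motif of TEAD factors, and no such match overlapped a run. The motif TGANTCA of AP-1 factors was also searched on both strands and had 0 matches in these 7 promoters.
FN1: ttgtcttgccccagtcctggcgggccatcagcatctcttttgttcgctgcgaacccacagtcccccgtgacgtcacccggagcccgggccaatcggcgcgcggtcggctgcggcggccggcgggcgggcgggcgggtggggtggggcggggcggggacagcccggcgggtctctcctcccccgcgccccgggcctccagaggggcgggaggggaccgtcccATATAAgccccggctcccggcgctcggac
VCAN: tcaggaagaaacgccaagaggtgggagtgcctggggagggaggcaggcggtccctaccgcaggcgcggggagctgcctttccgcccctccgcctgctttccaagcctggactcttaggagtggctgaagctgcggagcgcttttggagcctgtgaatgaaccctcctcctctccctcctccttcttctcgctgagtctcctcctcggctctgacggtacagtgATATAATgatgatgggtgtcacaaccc
COL13A1: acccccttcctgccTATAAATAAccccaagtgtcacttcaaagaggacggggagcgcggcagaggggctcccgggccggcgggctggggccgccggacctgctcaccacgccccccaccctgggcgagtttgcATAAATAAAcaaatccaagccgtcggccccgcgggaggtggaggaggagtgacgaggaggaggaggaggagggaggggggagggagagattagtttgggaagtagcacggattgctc
SPARC: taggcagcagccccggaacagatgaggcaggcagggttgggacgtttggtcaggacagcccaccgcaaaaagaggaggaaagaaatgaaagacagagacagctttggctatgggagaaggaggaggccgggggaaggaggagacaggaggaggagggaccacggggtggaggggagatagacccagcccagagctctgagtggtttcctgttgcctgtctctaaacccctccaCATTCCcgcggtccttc
THBS1: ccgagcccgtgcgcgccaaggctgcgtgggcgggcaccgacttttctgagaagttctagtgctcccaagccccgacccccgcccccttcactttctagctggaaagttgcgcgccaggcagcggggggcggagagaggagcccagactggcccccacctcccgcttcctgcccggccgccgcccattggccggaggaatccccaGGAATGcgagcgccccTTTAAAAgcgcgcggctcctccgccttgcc
TLN1: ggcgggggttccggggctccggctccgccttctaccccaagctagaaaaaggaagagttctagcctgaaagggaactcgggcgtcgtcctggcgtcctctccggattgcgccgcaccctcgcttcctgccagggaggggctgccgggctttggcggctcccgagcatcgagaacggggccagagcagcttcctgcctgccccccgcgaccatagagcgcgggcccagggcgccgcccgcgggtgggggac
TNS1: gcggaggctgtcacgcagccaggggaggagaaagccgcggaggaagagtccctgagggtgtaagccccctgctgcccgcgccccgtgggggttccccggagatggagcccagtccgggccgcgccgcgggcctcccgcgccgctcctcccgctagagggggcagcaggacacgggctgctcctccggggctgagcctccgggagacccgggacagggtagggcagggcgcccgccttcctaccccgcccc

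These stretches lie at chr2:215436069-215436318, minus strand (FN1), chr5:83471494-83471743, plus strand (VCAN), chr10:69801656-69801905, plus strand (COL13A1), chr5:151686916-151687165, minus strand (SPARC), chr15:39580829-39581078, plus strand (THBS1), chr9:35732196-35732445, minus strand (TLN1) and chr2:218010276-218010525, minus strand (TNS1). FN1, VCAN and THBS1 each have 1 A/T run and COL13A1 has 2, the longest of 9 bases, while SPARC, TLN1 and TNS1 have none. At least 1 such run occurs in 10 of the 19 called members with an entry, in 4 of 11 tested members that were not called, and in 59.6% of all 27305 promoters. GGAATG or CATTCC occurs in 6 of the 19 (COL12A1, ITGA5, ITGB1, SPARC, THBS1 and VCL), in 0 of the 11 and in 11.9% of all promoters. On the gene's own strand, in SPARC it begins 17 bases and in THBS1 46 bases before the start. TGANTCA occurs in 0 of the 19, in 1 of the 11 (LAMA3) and in 6.60% of all. The members' promoters are rich in G and C, with a median of 70.4% against 58% for all promoters. A match in these letters is a description and not a binding site.

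**Figure D2:**
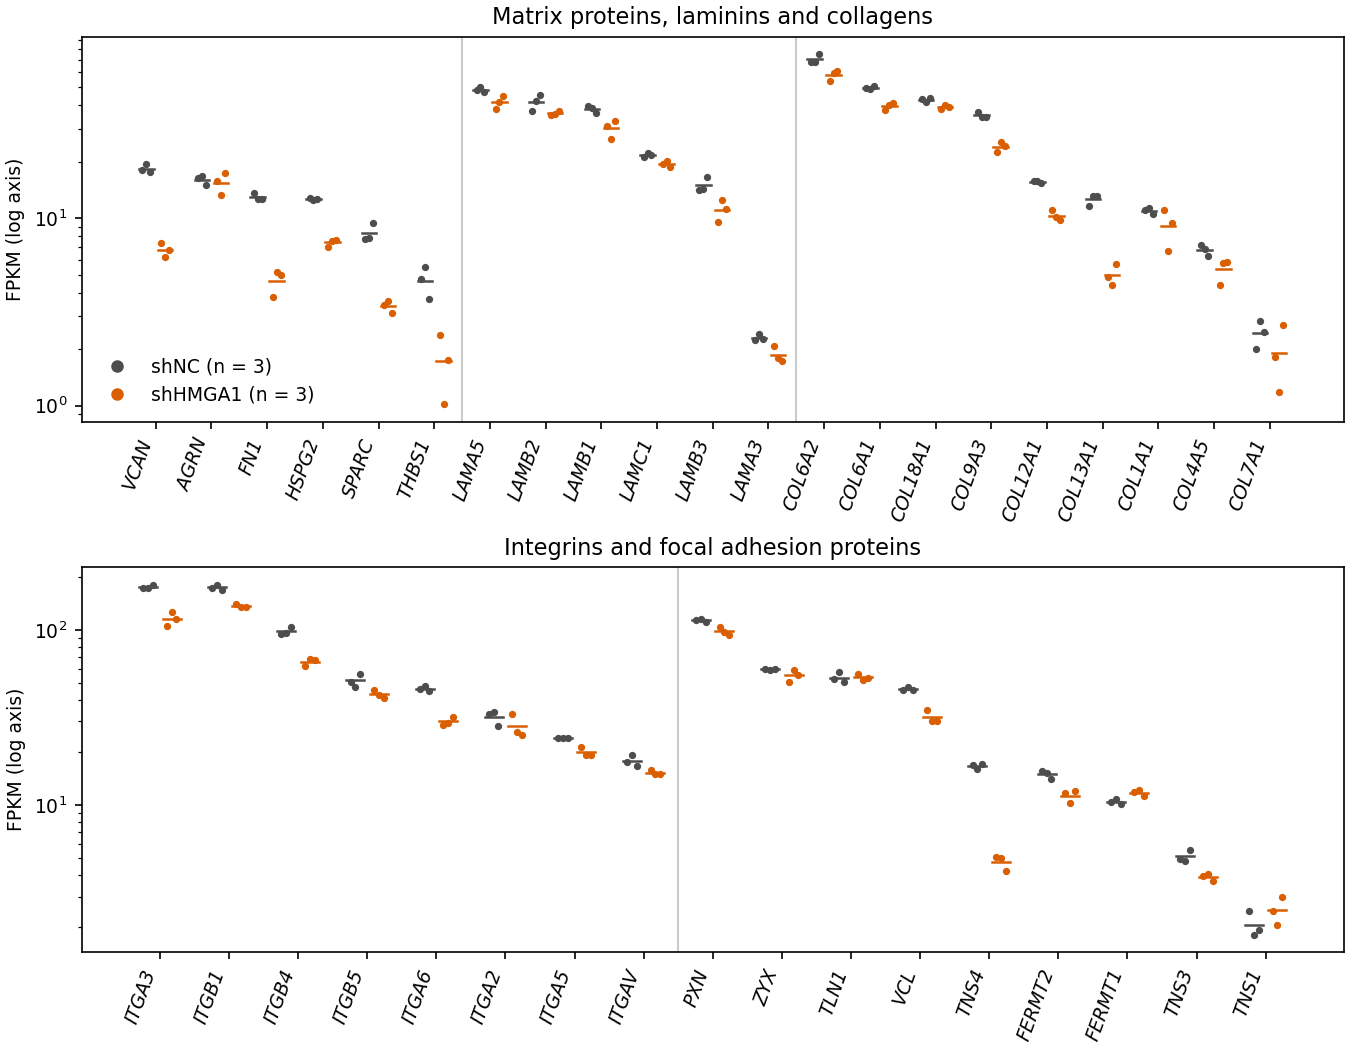
FPKM (y axis, log scale) of the 38 tested members in each library, with grey points for the 3 shNC libraries, orange points for the 3 shHMGA1 libraries and short lines at the group means. TNS4, COL13A1, FN1, VCAN, SPARC and THBS1 show the widest gaps, while AGRN, COL1A1, COL7A1, ITGA2, LAMB2, TLN1, TNS1 and ZYX overlap between the groups.

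Laminins, the trimers of 1 α, 1 β and 1 γ chain that integrins bind in the basement membrane, fell in 3 of 6 cases. Of these 3 calls, 0 held without shNC replicate 1 or shNC replicate 2, and 1 (LAMB1) held without shNC replicate 3. Without shNC replicate 1, LAMB2 was called instead. Over all 14304 genes, lower calls went from 1758 to 973, 947 and 1240 without shNC replicates 1, 2 and 3. LAMA5 (α5), LAMB1 (β1) and LAMC1 (γ1) form laminin-511, a main laminin of epithelial basement membranes. LAMA5, the most abundant laminin chain in the controls, measured 48.5, 50.3 and 47.2 FPKM in shNC and 38.5, 41.6 and 45.1 FPKM in shHMGA1. LAMB1 measured 40.0, 38.9 and 36.5 FPKM in shNC and 31.0, 26.6 and 33.2 FPKM in shHMGA1. LAMC1, whose chain is shared by most laminins, measured 21.4, 22.4 and 21.7 FPKM in shNC and 19.6, 20.2 and 18.7 FPKM in shHMGA1. In each of the 3 chains every knockdown library lay below every control library. LAMA5 (log2 fold change -0.22, adjusted p = 0.0450) and LAMB1 (log2 fold change -0.34, adjusted p = 0.0247) were called, and LAMC1 was not (log2 fold change -0.15, adjusted p = 0.0676).

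The LAMA5 call held without shHMGA1 replicate 3 but in no other leave-one-out fit (adjusted p as high as 0.140), and it was lost with the length correction (adjusted p = 0.124). The LAMB1 call was lost without shNC replicate 1 or shNC replicate 2 (adjusted p as high as 0.0907). LAMB2 (β2) measured 37.4, 42.1 and 45.3 FPKM in shNC and 35.5, 36.1 and 37.6 FPKM in shHMGA1, with 1 control library inside the range of the knockdown (log2 fold change -0.18, adjusted p = 0.104). Of the leave-one-out fits, only the one without shNC replicate 1 called LAMB2 (adjusted p = 0.0461).

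LAMB3 and LAMA3 encode chains of laminin-332, the ligand of hemidesmosomes. LAMB3 (β3) measured 14.2, 14.4 and 16.5 FPKM in shNC and 9.53, 12.5 and 11.3 FPKM in shHMGA1 and was called lower (log2 fold change -0.41, SE 0.10, adjusted p = 0.0264), a call lost in 4 of the 6 leave-one-out fits at up to 0.0854. LAMA3 (α3), at 2.25, 2.40 and 2.28 FPKM in shNC and 2.09, 1.80 and 1.73 FPKM in shHMGA1, was far below its partner and not called (log2 fold change -0.21, adjusted p = 0.159).

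**Figure D3:**
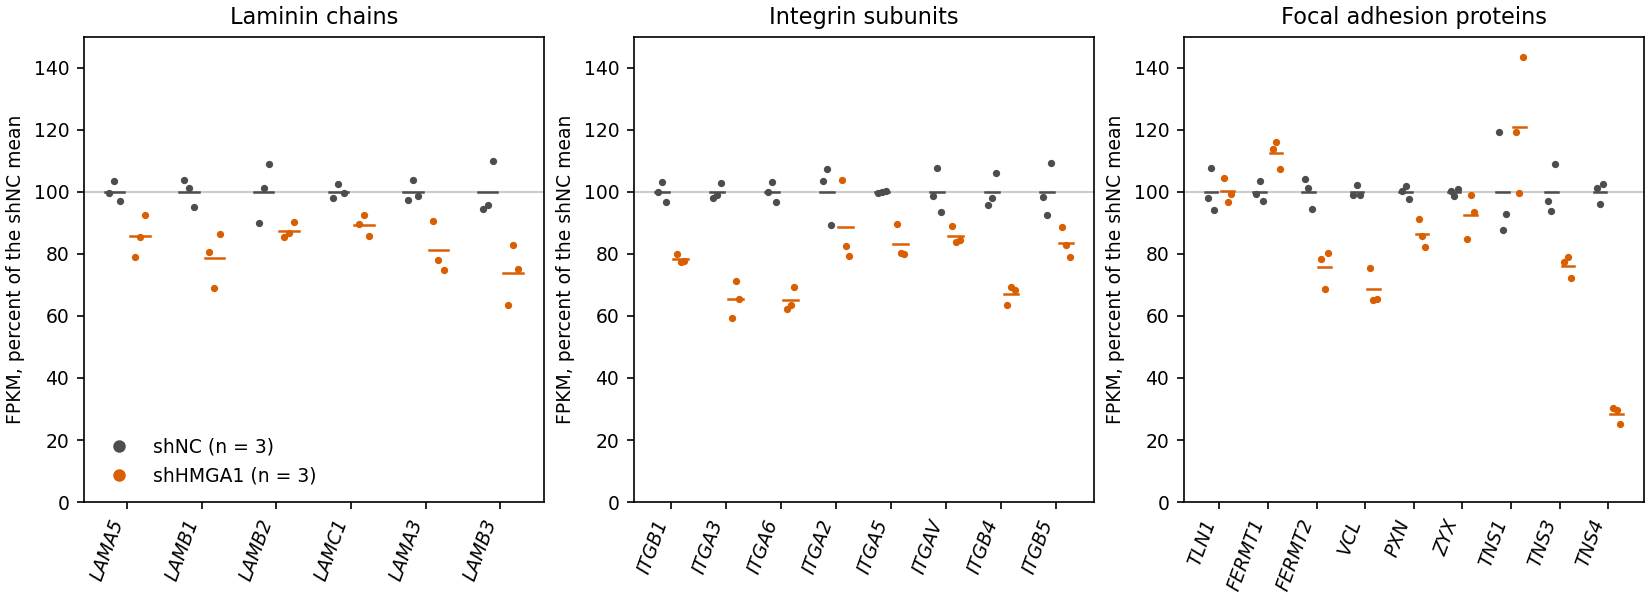
FPKM of laminin chains, integrin subunits and focal adhesion proteins as a percentage of the gene's shNC mean (y axis), with 1 point per library (grey shNC, orange shHMGA1) and short lines at the group means. TNS4 stands lowest at 28.3% of the control mean, ITGA3, ITGA6 and ITGB4 cluster near 65% to 67%, TLN1 stays at 100% and FERMT1 lies above the controls at 112%.

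Of the 9 collagen genes tested, 5 fell, and COL13A1, COL12A1 and COL9A3 had the lowest log2 fold changes. Collagen XIII (COL13A1), a transmembrane collagen found at cell adhesions, measured 11.6, 13.2 and 13.1 FPKM in shNC and 4.85, 4.39 and 5.68 FPKM in shHMGA1. That left 39.3% of the control level (log2 fold change -1.20, SE 0.10, adjusted p = 0.000838). The fibril-associated collagens XII (COL12A1) and IX (COL9A3) measured 15.8, 15.9 and 15.3 FPKM in shNC and 11.1, 10.1 and 9.83 FPKM in shHMGA1 for COL12A1, and 37.1, 34.5 and 34.8 FPKM in shNC and 22.6, 25.4 and 24.2 FPKM in shHMGA1 for COL9A3. Neither overlapped between the groups, and their log2 fold changes were similar at -0.56 (SE 0.062, adjusted p = 0.00177) and -0.54 (SE 0.06, adjusted p = 0.00177).

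Collagen VI forms beaded filaments from 3 different chains. COL6A1 measured 49.7, 49.2 and 50.6 FPKM in shNC and 37.9, 40.0 and 41.1 FPKM in shHMGA1, and COL6A2 68.1, 68.5 and 75.1 FPKM in shNC and 53.8, 59.4 and 61.1 FPKM in shHMGA1. The genes for these chains lie close together on chromosome 21, COL6A1 from 45981737 to 46005050 and COL6A2 from 46098097 to 46132849, and were reduced by like amounts: to 79.6% (log2 fold change -0.32, SE 0.049, adjusted p = 0.00469) and 82.4% (log2 fold change -0.28, SE 0.066, adjusted p = 0.0218). Within a library, their ratio in FPKM was 0.707 ± 0.0300 in shNC and 0.683 ± 0.0184 in shHMGA1. This ratio, and the others given below, were chosen after the values were seen and are descriptions. The COL6A2 call was lost without any 1 of the 3 control libraries (adjusted p up to 0.0647). The third chain, COL6A3, outside the 50, was between 0.02 and 0.10 FPKM in all libraries.

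COL18A1, the basement membrane collagen from which endostatin is cut, lies on the same chromosome arm and measured 43.2, 41.7 and 44.1 FPKM in shNC and 38.3, 40.4 and 39.1 FPKM in shHMGA1. Its groups did not overlap, but the difference was small and not called (log2 fold change -0.13, adjusted p = 0.0890). Its exons share 1401 bases (16.4%) with SLC19A1 on the other strand, which was at 8.70 FPKM in shNC and 15.9 FPKM in shHMGA1. The sources used here do not say whether counting used strand, so reads of that stretch may not be separable, and the effect on COL18A1 was not tested.

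The network collagen IV of the basement membrane had 1 tested chain among the members. COL4A5 measured 7.21, 6.88 and 6.33 FPKM in shNC and 4.42, 5.78 and 5.87 FPKM in shHMGA1 and was not called, although the groups did not overlap (log2 fold change -0.30, adjusted p = 0.0761). Its neighbour COL4A6, which lies head to head with it on the X chromosome, measured 0.76, 0.89 and 0.79 FPKM in shNC and 0.44, 0.91 and 0.58 FPKM in shHMGA1, below the level tested. COL4A1 and COL4A2, the widespread chains, did not exceed 0.17 FPKM in any library. COL4A3 and COL4A4, which are not among the 50, measured 3.21, 2.97 and 2.89 FPKM in shNC and 3.46, 1.89 and 2.11 FPKM in shHMGA1 for COL4A3 and 2.72, 2.60 and 2.64 FPKM in shNC and 2.30, 1.82 and 2.24 FPKM in shHMGA1 for COL4A4, and neither was called. COL5A1, of a minor fibrillar collagen, was at up to 0.1 FPKM.

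COL1A1, of fibrillar collagen I, measured 11.1, 11.3 and 10.6 FPKM in shNC and 11.1, 6.67 and 9.40 FPKM in shHMGA1 and was not called (log2 fold change -0.28, adjusted p = 0.219); shHMGA1 replicate 1 sat within the controls and replicate 2 far below them. COL7A1, the anchoring fibril collagen, measured 2.01, 2.84 and 2.47 FPKM in shNC and 1.82, 1.18 and 2.71 FPKM in shHMGA1 and also overlapped (log2 fold change -0.27, adjusted p = 0.348). COL17A1, a hemidesmosome collagen, had a mean just under the level tested, at 1.36, 1.13 and 1.15 FPKM in shNC and 0.48, 0.78 and 0.96 FPKM in shHMGA1, with every knockdown library below every control library. The other members closest to that level were ITGB8, with a mean of 0.997 FPKM, and ITGA1, with 0.963 FPKM, and the lowest member tested was LAMA3, with 2.09 FPKM.

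Of the 8 integrin subunits tested, 6 fell, and the chains of the laminin-binding receptors had the lowest log2 fold changes. The α3 chain ITGA3, whose pair with β1 binds laminin-511 and laminin-332, measured 173, 175 and 181 FPKM in shNC and 105, 126 and 115 FPKM in shHMGA1. The α6 chain ITGA6 measured 46.1, 47.6 and 44.7 FPKM in shNC and 28.7, 29.3 and 32.0 FPKM in shHMGA1, and its hemidesmosome partner ITGB4 (β4) 94.4, 96.5 and 104 FPKM in shNC and 62.4, 68.1 and 67.3 FPKM in shHMGA1. All 3 were reduced to between 65.0% and 67.0% of the control mean. The statistics were log2 fold change -0.61, SE 0.069, adjusted p = 0.00185 for ITGA3, log2 fold change -0.61, SE 0.058, adjusted p = 0.00121 for ITGA6 and log2 fold change -0.57, SE 0.059, adjusted p = 0.00146 for ITGB4. The ratio of ITGB4 to ITGA6 was 2.13 ± 0.173 in shNC and 2.20 ± 0.114 in shHMGA1, and the libraries of the groups overlapped in it.

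The shared β1 chain, which pairs with most α chains, also fell. ITGB1 measured 175, 181 and 169.5 FPKM in shNC and 140.1, 135 and 136 FPKM in shHMGA1, or 78.4% of control (log2 fold change -0.35, SE 0.044, adjusted p = 0.00264). Within a library, ITGA6 to ITGB1 in FPKM was 0.264, 0.264 and 0.264 in shNC and 0.205, 0.216 and 0.235 in shHMGA1. In the controls ITGA3 and ITGB1 were level with each other and the most abundant subunits, at 173 to 181 and at 169.5 to 181 FPKM. In the knockdown ITGA3 lay below ITGB1 in every library, at 105 to 126 FPKM against 135 to 140.1 FPKM.

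The order of control levels below these was ITGB4, ITGB5, ITGA6, ITGA2, ITGA5 and ITGAV. ITGB5 and ITGA6 were close there, with 47.5 FPKM as the lowest ITGB5 library and 47.6 FPKM as the highest ITGA6 library. In the knockdown ITGA6 was next to ITGA2, and their libraries overlapped, at 28.7 to 32.0 FPKM and 25.2 to 33.0 FPKM.

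Among the tested subunits, chains of the receptors for fibronectin and vitronectin had smaller differences than ITGA3, ITGA6 and ITGB4. The fibronectin receptor chain ITGA5 measured 24.1, 24.1 and 24.2 FPKM in shNC and 21.6, 19.4 and 19.3 FPKM in shHMGA1, without overlap and with nearly equal controls (log2 fold change -0.25, SE 0.059, adjusted p = 0.0196). ITGB5 (β5), which with αv binds vitronectin, measured 50.5, 47.5 and 56.2 FPKM in shNC and 45.6, 42.7 and 40.7 FPKM in shHMGA1 (log2 fold change -0.25, adjusted p = 0.0435). ITGAV (αv), the α chain of the RGD-binding receptors, measured 17.6, 19.3 and 16.7 FPKM in shNC and 15.9, 15.0 and 15.1 FPKM in shHMGA1 and just missed the threshold (log2 fold change -0.21, adjusted p = 0.0537). The collagen receptor chain ITGA2 (α2) measured 32.9, 34.1 and 28.4 FPKM in shNC and 33.0, 26.3 and 25.2 FPKM in shHMGA1, with shHMGA1 replicate 1 inside the control range (log2 fold change -0.17, adjusted p = 0.288).

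The calls for ITGA5 and ITGB5 rest on few libraries. ITGA5 was called in 1 leave-one-out fit, the one lacking shHMGA1 replicate 1 (adjusted p as high as 0.0732 in the rest). ITGB5 was called without shNC replicate 2 or shHMGA1 replicate 1 and otherwise had up to 0.136. ITGA2 was called without shHMGA1 replicate 1 (log2 fold change -0.29, adjusted p = 0.0491). ITGA3, ITGA6, ITGB1 and ITGB4 were called in all 6, with adjusted p up to 0.0173.

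Subunits below the level tested were ITGA1, ITGB6 and ITGB8. ITGB8, which with αv activates latent TGF-β, measured 1.27, 1.47 and 1.06 FPKM in shNC and 0.67, 0.8 and 0.71 FPKM in shHMGA1, with no overlap. ITGB6, the epithelial partner of αv, did not exceed 0.15 FPKM. ITGA1, a collagen receptor chain, measured 1.25, 1.11 and 0.69 FPKM in shNC and 1.05, 0.69 and 0.99 FPKM in shHMGA1, and 475 bases of its exons are shared with PELO on the same strand, a gene at 7.70 FPKM in shNC.

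Of the 9 focal adhesion proteins, 5 fell, which became 2 without shNC replicate 1 and 3 if shNC replicate 2, shHMGA1 replicate 2 or shHMGA1 replicate 3 was left out. Over all 14304 genes, lower calls went from 1758 to 973, 947, 1414 and 1029 in these fits, in that order. Tensin-4 (TNS4), an epithelial tensin that binds β integrin tails, had the largest decrease of the 50 among those tested. It measured 17.0, 16.1 and 17.2 FPKM in shNC and 5.07, 4.97 and 4.21 FPKM in shHMGA1, or 28.3% of control (log2 fold change -1.63, SE 0.078, adjusted p = 0.000177). TNS4 (ENSG00000131746.13) lies on chromosome 17, 40475828 to 40501597, minus strand in hg38. Tensin-3 (TNS3) measured 4.95, 4.78 and 5.56 FPKM in shNC and 3.95, 4.03 and 3.68 FPKM in shHMGA1 (log2 fold change -0.32, adjusted p = 0.0283), and tensin-1 (TNS1) 2.48, 1.82 and 1.93 FPKM in shNC and 2.48, 2.07 and 2.98 FPKM in shHMGA1 (log2 fold change 0.19, adjusted p = 0.336).

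Among the tensins that are members, TNS4 was far below the controls in every knockdown library, TNS3 fell by a smaller amount, and TNS1 overlapped. TNS2, which is not a member and is named after its values were seen, went from 7.01 ± 0.104 to 5.47 ± 0.261 FPKM. It was called lower (log2 fold change -0.31, adjusted p = 0.0152), a call lost without shNC replicate 1 or shNC replicate 2. In FPKM the ratio of TNS4 to TNS3 was 3.31 ± 0.180 in shNC and 1.22 ± 0.0707 in shHMGA1. Of the leave-one-out fits, the one lacking shHMGA1 replicate 1 alone called TNS3 (adjusted p as high as 0.0946 in the rest), and the call was lost with the length correction and with quantile scaling.

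Kindlins activate integrins together with talin, and of FERMT2 and FERMT1, the kindlins among the members, 1 fell. Kindlin-2 (FERMT2) measured 15.6, 15.2 and 14.2 FPKM in shNC and 11.7, 10.3 and 12.0 FPKM in shHMGA1 and fell (log2 fold change -0.37, SE 0.075, adjusted p = 0.0117), a call lost without shNC replicate 1 (adjusted p = 0.056). Kindlin-1 (FERMT1), the epithelial form, measured 10.4, 10.8 and 10.2 FPKM in shNC and 11.9, 12.1 and 11.2 FPKM in shHMGA1. It was the 1 tested member whose knockdown libraries all lay above the controls, but it was not called (log2 fold change 0.15, adjusted p = 0.0935). The ratio of FERMT2 to FERMT1 was 1.50, 1.40 and 1.39 in shNC and 0.983, 0.847 and 1.07 in shHMGA1, so kindlin-2 RNA exceeded kindlin-1 RNA in each control library and in 1 of the 3 knockdown libraries.

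Talin-1 (TLN1), the adaptor that links integrin tails to actin, measured 52.5, 57.7 and 50.4 FPKM in shNC and 55.9, 51.8 and 53.2 FPKM in shHMGA1. The groups overlapped, with a log2 fold change near 0 at 0.00535 (SE 0.063, adjusted p = 0.958). Its sign was below 0 under quantile scaling, under median-of-ratios scaling and without mitochondrially encoded genes. Vinculin (VCL), which reinforces the link from talin to actin, measured 45.6, 47.1 and 45.6 FPKM in shNC and 34.7, 30.1 and 30.2 FPKM in shHMGA1 and fell (log2 fold change -0.53, SE 0.066, adjusted p = 0.00253). The scaffold paxillin (PXN) measured 114, 116 and 111 FPKM in shNC and 104, 97.6 and 93.5 FPKM in shHMGA1 (log2 fold change -0.21, adjusted p = 0.0239), and zyxin (ZYX), an actin regulator at mature adhesions, 59.6, 58.7 and 60.0 FPKM in shNC and 50.5, 58.9 and 55.6 FPKM in shHMGA1 (log2 fold change -0.11, adjusted p = 0.213).

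VCL was called in all 6 leave-one-out fits, and PXN only without shNC replicate 3 or shHMGA1 replicate 1 (adjusted p up to 0.0870 in the others). Exons of PXN share 918 bases (12.3%) with the antisense gene PXN-AS1, at 8.56 FPKM in shNC and 9.45 in shHMGA1. Those of VCL share 1109 bases (11.1%) with AP3M1, at 22.9 and 22.5 FPKM.

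**Figure D4:**
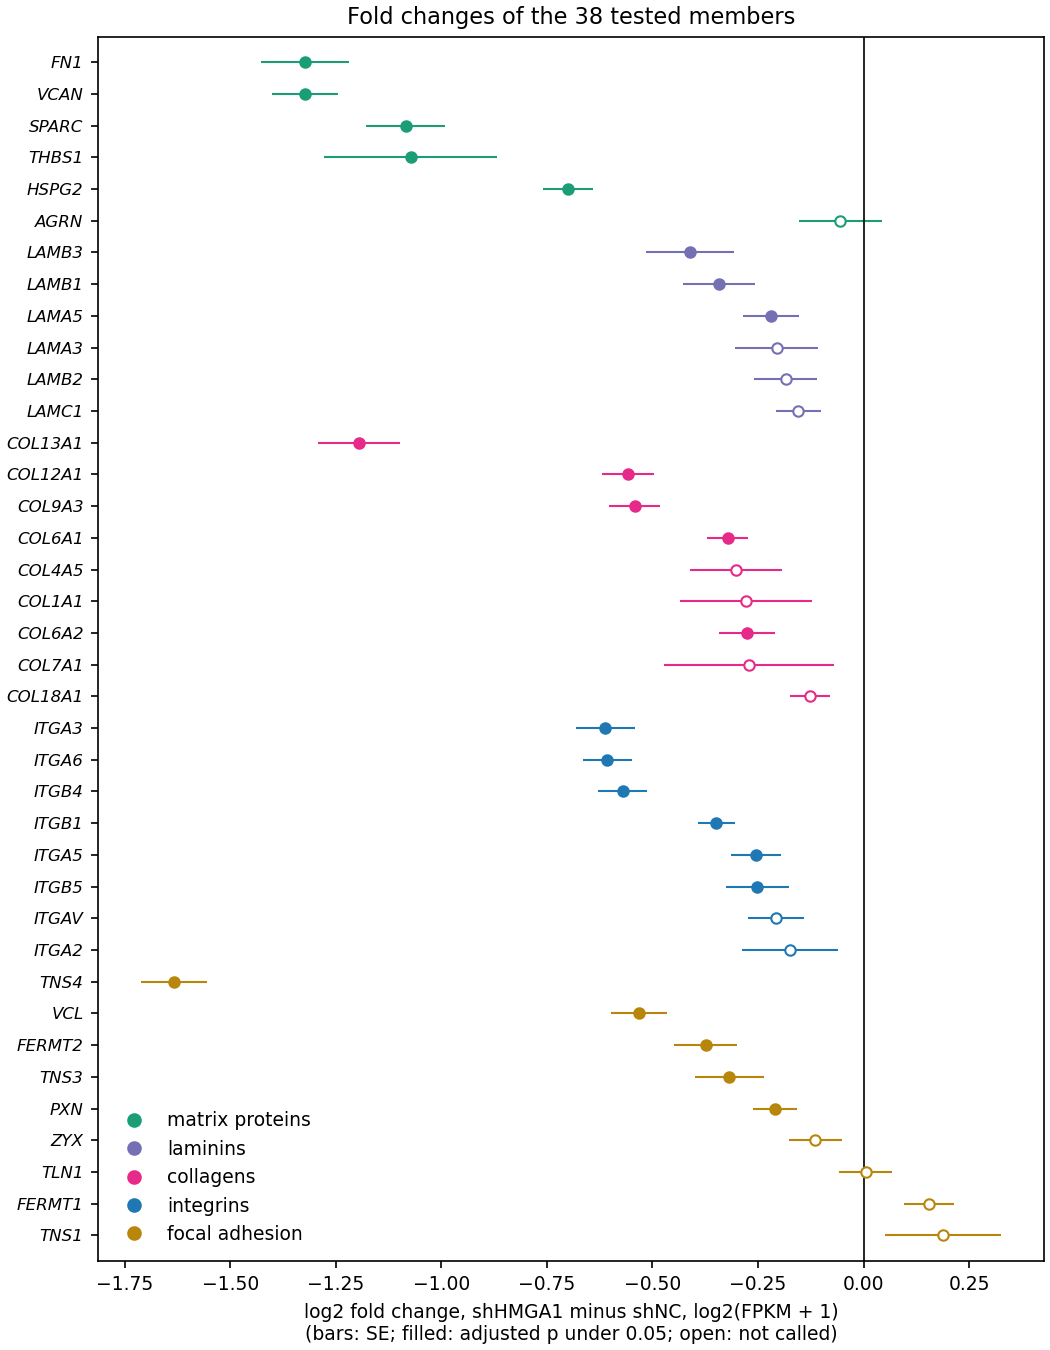
Log2 fold changes (x axis, shHMGA1 minus shNC on the log2(FPKM + 1) scale) of the 38 tested members by class, with bars for the SE. Filled points are the 24 members called lower, open points the 14 not called, and the range is from -1.63 for TNS4 to 0.19 for TNS1.

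The authors' deposited table, made with their own test, gave lower calls for more of these genes. There, in the authors' deposited table, a log2 fold change below 0 with an adjusted p under 0.05 was given for 31 of the 50, of which 44 have an adjusted p there, and one above 0 for 0. Of the 16509 genes with an adjusted p in the authors' deposited table, 16.7% were lower and 17.5% higher by the same rule. All 24 members called lower by limma were among them. Of the 14 that limma did not call, the authors' deposited table had 6 as lower: LAMA3 (-0.44), LAMB2 (-0.27), LAMC1 (-0.20), COL4A5 (-0.22), COL18A1 (-0.15) and ITGAV (-0.29), as log2 fold changes. The 31st was ITGB8, below the level tested here (-0.78, adjusted p 3.33e-06, in the authors' deposited table). The direction differed between both sources in 1 of the 38, TLN1 (-0.08 in the authors' deposited table, adjusted p 0.240).

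Other genes of matrix, collagen maturation and adhesion were counted from 6 further lists. Of 146 genes listed, 143 were in the table and 87 were tested, of which 34 fell, 4 rose and 49 were not called. Their median log2 fold change was -0.20. The share called lower was 39.1%, beside 63.2% of the 38 members and 12.3% of all genes. Members and further lists were chosen with earlier results of these data known, and differences between these shares were not tested. In 3 of the 87 the knockdown mean was under 1 FPKM, so that these passed the level through the controls. Among the 34 that fell are 2 of these, both collagen processing genes.

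Of 21 other matrix glycoproteins and proteoglycans, 10 fell and 1 rose. CCN2, a matricellular protein that binds integrins and growth factors, had 11.9 ± 0.217 FPKM in shNC and 1.61 ± 0.580 FPKM in shHMGA1 (log2 fold change -2.34, adjusted p = 0.000494). TINAGL1, a secreted basement membrane protein, went from 44.2 ± 1.52 to 19.8 ± 2.90 FPKM (log2 fold change -1.13, adjusted p = 0.000908) and FRAS1, of the epithelial basement membrane, from 6.56 ± 0.211 to 3.45 ± 0.234 FPKM (log2 fold change -0.77, adjusted p = 0.00131). The proteoglycan SDC1 (syndecan-1) was the 1 that rose, from 28.4 ± 1.13 to 33.5 ± 0.731 FPKM (log2 fold change 0.23, adjusted p = 0.0168), a call lost without shNC replicate 1 or 2. CCN1, a related matricellular protein named after its values were seen, measured 114, 119 and 113 FPKM in shNC and 63.8, 8.44 and 45.8 FPKM in shHMGA1 and was not called, with a wide spread among the knockdown libraries (log2 fold change -1.92, adjusted p = 0.0622). Without shNC replicate 1 or shNC replicate 2, 5 of the 21 fell, and lower calls over all 14304 genes went from 1758 to 973 and 947.

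Genes that make and cross-link collagen fell in 11 of 21 cases, and 1 rose. The 11 include 2 that passed the level tested only through the controls, so that the filter favoured a fall. These are ADAMTS2 and P4HA3, the latter named after its values were seen, with a mean of 0.733 FPKM in shHMGA1. The lysyl oxidase LOXL2, which cross-links collagen and elastin, went from 26.6 ± 0.959 to 14.6 ± 0.897 FPKM (log2 fold change -0.82, adjusted p = 0.000645). P4HA1, a catalytic chain of prolyl hydroxylase that stabilises the triple helix, went from 45.2 ± 0.622 to 28.9 ± 4.07 FPKM (log2 fold change -0.63, adjusted p = 0.00486), and ADAMTS2, which trims procollagen, from 2.37 ± 0.436 to 0.963 ± 0.349 FPKM (log2 fold change -0.79, adjusted p = 0.0145), with its knockdown mean under the level tested. The related oxidase LOXL3 rose from 1.85 ± 0.150 to 3.23 ± 0.0400 FPKM (log2 fold change 0.57, adjusted p = 0.00524) and was called in all 6 leave-one-out fits. The count that fell was 6 without shNC replicate 2 and 7 if either shNC replicate 3 or shHMGA1 replicate 3 was left out. Over all 14304 genes, lower calls went from 1758 to 947, 1240 and 1029 in these fits, in that order.

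Of 34 other adhesion partners, 12 fell and 2 rose. TES (testin), a zyxin-binding protein, went from 76.2 ± 2.04 to 52.9 ± 4.28 FPKM (log2 fold change -0.52, adjusted p = 0.00268), the actin cross-linker ACTN4 from 309 ± 5.57 to 231 ± 9.84 FPKM (log2 fold change -0.42, adjusted p = 0.00180) and LIMS2, of the complex with integrin-linked kinase, from 2.58 ± 0.392 to 1.65 ± 0.126 FPKM (log2 fold change -0.43, adjusted p = 0.0314). SRC, a kinase of focal adhesions, rose from 12.9 ± 0.302 to 17.8 ± 2.80 FPKM (log2 fold change 0.43, adjusted p = 0.0225) and DST, the plakin of hemidesmosomes, from 47.0 ± 3.20 to 54.2 ± 1.01 FPKM (log2 fold change 0.20, adjusted p = 0.0427). The calls for LIMS2 and DST were lost in each of the 6 leave-one-out fits and that for SRC in 4. In the authors' deposited table the log2 fold change was 0.43 for SRC (adjusted p 1.64e-05) and 0.026 for DST (adjusted p 0.856). The 12 that fell were 4 without shNC replicate 1, 5 without shNC replicate 2, and 7 if shNC replicate 3 or shHMGA1 replicate 3 was left out. Over all 14304 genes, lower calls went from 1758 to 973, 947, 1240 and 1029 in these fits, in that order. The 2 that rose were 0 without any 1 of the 3 control libraries or shHMGA1 replicate 3, and 1 without shHMGA1 replicate 2. Higher calls over all genes went from 2307 to 1094, 1263, 1530, 1144 and 1716 in these fits, in that order.

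Few genes of the remaining lists reached the level tested. Of 2 other laminins (LAMA2 and LAMC3, named after their values were seen) 0 fell and 0 rose by limma, 0 had an unadjusted p under 0.05 and the authors' deposited table called 0. Of 3 other integrins 1 fell (ITGA7, a laminin receptor chain of muscle, from 10.1 ± 0.488 to 7.72 ± 0.456 FPKM, log2 fold change -0.35, adjusted p = 0.0113), and of 6 other collagens 0 fell and 0 rose by limma. Of those 6 collagens 1 had an unadjusted p under 0.05 (COL16A1, with -0.37 as log2 fold change), and the authors' deposited table called 1 of the 6 higher, COL27A1 (0.32, adjusted p 0.0191, in the authors' deposited table). COL16A1 and COL27A1 are named after their values were seen. The ITGA7 call was lost without shNC replicate 1.

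**Figure D5:**
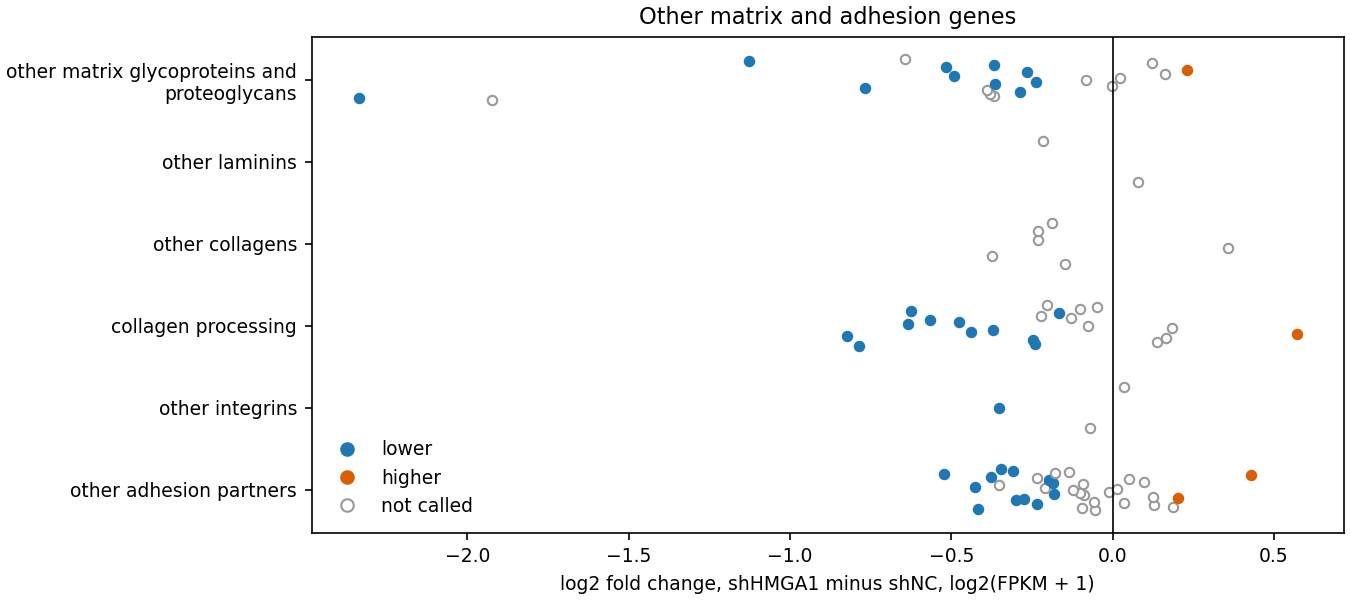
Log2 fold changes (x axis, shHMGA1 minus shNC on the log2(FPKM + 1) scale) of the 87 tested genes in 6 further lists, 1 point per gene, with filled blue points for the 34 called lower, filled orange points for the 4 called higher and open points for the 49 not called. CCN2 lies furthest to the left at -2.34, and LOXL3 furthest to the right among called genes at 0.57.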

How the data were processed

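Poly-A RNA of 6 HT29 libraries was sequenced, per the labels' protocols. The deposited table holds 1 FPKM value per gene and library, which the authors computed and gave to 2 decimals. It also has, per the file headers, the authors' level per group, a signal that was not used here, and the authors' log2 fold change with its p-value, raw and adjusted. Reads were placed on hg38 (submitters' processing notes). The sources used here name no aligner, counter, strand setting or annotation.

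Genes that averaged 1 FPKM or more were tested as log2(FPKM + 1) by limma 3.58.1 under R 4.3.3 (two-sided, eBayes with trend), with Benjamini-Hochberg adjustment across the 14304 genes. This scale shrinks the fold change of low genes. An adjusted p with no other source is from that test, and "called", "fell" and "rose" mean an adjusted p under 0.05. HMGA1 was also compared by an exact permutation test (scipy 1.17.1, Python 3.11.15). In simulated data for this comparison, with 14304 genes, limma called 95 of 100 genes changed by 1 on the log2 scale, 61 of 100 changed by 0.5, and 9 of 14104 unchanged ones. The changed genes all averaged at least 5 FPKM and were far fewer than those called in the data (2307 higher, 1758 lower). These rates therefore do not carry over to lower genes or to data with that many changes.

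The 50 genes and all lists were chosen with earlier results of these data known. All 50 are named, and from each further list up to 3 called genes in each direction with the largest absolute log2 fold change. Listed genes without a line in the table are not analysed here, and 1 gene is not reported here. Coordinates and exon lengths are from GENCODE 29, which held 30003 of the table's IDs and all 50 members. Exons of 21 of the 38 tested members overlap another gene. The alternatives tried were pseudocounts of 0.1 and 5, a different or no filter, other scalings, TPM, removal of mitochondrially encoded genes, a length correction, the replicate block, other eBayes settings, and leaving out each library.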

Additional observations from a re-analysis of the deposited data

How the results depend on the processing

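The count of members called higher was 0 in every alternative. Members called lower, 24 in the main fit, numbered 18 with no filter, where 1347 of 31164 genes were called lower. They numbered 21 to 27 in the other alternatives with all libraries. With 1 library left out they numbered 16 to 24, and the 16 without shNC replicate 1 include LAMB2, which is not among the 24. In each of these 6 fits the log2 fold change of all 24 was below 0, and 15 were called in every one. By class, leaving out 1 library gave 5 of the matrix proteins, 0 to 2 laminins, 4 to 5 collagens, 4 to 7 integrins and 2 to 5 focal adhesion proteins. Laminins called lower, 3 in the main fit, numbered 0 with no filter and 5 with quantile scaling or without mitochondrially encoded genes. Of 679 results of tested members over the 18 alternatives (5 members were not tested at a mean of at least 5 FPKM), 612 results kept direction and call, 48 lost a call, 12 gained one and 7 changed sign.

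The sign changed for AGRN without shHMGA1 replicate 2 (0.0419) and for TLN1 with quantile scaling (-0.0505), with median-of-ratios scaling (-0.0200), without mitochondrially encoded genes (-0.0198) and in 3 leave-one-out fits. Leaving out 1 library gave -0.134 to 0.0419 for AGRN and -0.0360 to 0.0597 for TLN1. HMGA1 stayed between -0.746 and -0.606 with any library left out.

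Of all genes, 2307 were called higher and 1758 lower. The surplus of higher calls was not there with median-of-ratios scaling (1977 higher, 1998 lower) and was small with the length correction (2094 and 2075) and without mitochondrially encoded genes (1962 and 1901). With no filter 1478 were called higher, and 1094 to 2621 higher and 947 to 1962 lower with 1 library left out. With no filter the further lists gave 6 lower matrix glycoproteins, 1 higher (COL3A1) and 1 lower (COL21A1) collagen, 3 lower integrins and 0 higher adhesion partners. With a mean of at least 5 FPKM 0 collagen processing genes rose, and with no trend 1 collagen fell. The 2 adhesion partners that rose were 1 with quantile or median-of-ratios scaling, without mitochondrially encoded genes, with the replicate block or with no trend. Leaving out 1 library gave 5 to 12 lower and 0 to 2 higher matrix glycoproteins, 6 to 10 lower and 1 to 2 higher collagen processing genes, 4 to 10 lower and 0 to 2 higher adhesion partners, 0 to 1 lower and 0 to 1 higher collagens and 0 to 1 lower integrins. Where a setting changes a result, the cause was not tested, except that fewer samples or more genes tested follow from the setting.

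Replicate numbers shared by the groups do not show a pairing: deviations of same-numbered libraries correlated at 0.0202, -0.0364 and 0.0410, and not every library correlated best with its own number. With the replicate number as a block 21 of the 38 members were called lower and 0 higher, with LAMA5, ITGB5 and TNS3 no longer called, and 7 of the collagen processing genes fell. FPKM keeps no depth, so precision for the members under 1 FPKM is unknown.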

Other observations

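COL3A1, of fibrillar collagen III, was higher in the knockdown, at 0.18, 0.18 and 0.17 FPKM in shNC and 0.95, 0.81 and 0.91 FPKM in shHMGA1. Its mean is below the level tested; with no filter its log2 fold change was 0.68 (adjusted p = 0.00546 by limma), and it was higher in 3 of 3 knockdown libraries. The authors' deposited table gave it a log2 fold change of 2.44 (adjusted p 1.29e-16). Its fibril partner COL5A2 measured 0.64, 0.72 and 0.76 FPKM in shNC and 0.56, 0.57 and 0.55 FPKM in shHMGA1, and COL1A2 was listed at 0 in 5 of the 6 libraries. COL3A1 is also among the fibroblast markers, of which DCN, PDGFRA and THY1 did not exceed 0.15 FPKM in any library and PDGFRB did not exceed 0.25 FPKM.

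Integrin β3 (ITGB3), the vitronectin receptor chain that pairs with αv, measured 0.4, 0.41 and 0.58 FPKM in shNC and 0.08, 0.08 and 0.03 FPKM in shHMGA1, and integrin α9 (ITGA9), a tenascin-C receptor chain, 0.93, 0.89 and 0.79 FPKM in shNC and 0.45, 0.52 and 0.32 FPKM in shHMGA1. Both are below the level tested, with every knockdown library under every control library, and with no filter both were called lower by limma, ITGB3 at a log2 fold change of -0.46 (adjusted p = 0.0128) and ITGA9 at -0.39 (adjusted p = 0.0453). These genes were named after their values were seen.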
